A study of Homo sapiens with 30 samples.

Results

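PAX6 lies on chromosome 11 on the minus strand, at chr11:31789026-31817961 of GRCh38, with its most upstream start at 31817961. Open chromatin was described here in a window of 429 kb that holds the gene and 200 kb on each side of it, chr11:31589026-32017961. Peaks of the 10 deposited lists that touched this window were merged where they overlapped by at least 1 bp, which gave 102 regions of the 493444 merged over the main chromosomes. A region counts as open in a list that has a peak there and as closed in a list that has none.

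The cells were wild-type H1, an established human embryonic stem cell line, and each of 30 OmniATAC-seq libraries was made from 50000 cells. ATAC-seq uses a transposase that cuts accessible DNA, so a peak marks a stretch of open chromatin. There were 10 groups of 3 replicates and 1 peak list for each group, so a value below has no replicate error and no test, and a difference between 2 lists compares the lists. Undifferentiated cells of day 0 (hPSC) were taken to definitive ectoderm (DE, day 1) with A8301, Trametinib, C59 and LDN193189. DE cells then became anterior neural ectoderm (aNE, day 2) in A8301, LDN193189, C59 and Thiazovivin, or posterior neural ectoderm (pNE, day 2) in A8301, LDN193189, TTNPB, FGF2, XAV939 and Thiazovivin. TTNPB is a retinoid receptor agonist and XAV939 and C59 act against WNT signalling. Each of aNE and pNE was carried to day 4 in telencephalon (T), midbrain (M) or hindbrain (H) medium, and the lists are called aNE_T, aNE_M, aNE_H, pNE_T, pNE_M and pNE_H. The labels name XAV939, LDN193189 and FGF2 for forebrain medium on day 3, and the agents of the other day 4 media are not given in the sources used here. The labels also give different plating densities for the anterior and posterior protocols, so density and origin cannot be told apart in the day 4 lists.

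PAX6 encodes a transcription factor with a paired domain and a homeodomain that is needed for eye formation and for patterning of the forebrain and of the ventral hindbrain and spinal cord. It has several promoters, and many of its long-range enhancers lie outside the gene, some of them in introns of ELP4, the neighbouring gene downstream of PAX6, which encodes a subunit of the Elongator complex. PAX6-AS1 and PAUPAR are noncoding RNA genes on the opposite strand at its upstream end. In this annotation ELP4 spans chr11:31509767-31790324 and shares 1299 bp with the last part of PAX6, so every base of the window downstream of PAX6 lies inside ELP4.

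RefSeq gives 9 starts for PAX6 transcripts, and the 250 bases before a start were open in very different numbers of lists. Those of PAX6 that were open in some lists and closed in others are printed here with the same stretch of PAX6-AS1 and PAUPAR, 5′ to 3′ on the strand of the gene, from GRCh38.p14. Capitals mark matches, on either strand, to any of 8 short motifs. These were the E box (CANNTG), the CCAAT box, the TATA letters (TATAA), the GC box (GGGCGG), a nuclear receptor motif (AGGTCA), the SOX core (ACAAT), a homeodomain core (TAATTA) and the octamer (TTTGCAT).
PAX6 start 31817961, minus strand, chr11:31817962-31818211: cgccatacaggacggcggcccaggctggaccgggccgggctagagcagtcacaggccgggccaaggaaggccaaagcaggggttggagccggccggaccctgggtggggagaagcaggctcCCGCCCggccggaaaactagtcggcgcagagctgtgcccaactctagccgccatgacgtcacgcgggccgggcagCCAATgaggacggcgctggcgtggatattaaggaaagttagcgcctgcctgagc
PAX6 start 31812720, minus strand, chr11:31812721-31812970: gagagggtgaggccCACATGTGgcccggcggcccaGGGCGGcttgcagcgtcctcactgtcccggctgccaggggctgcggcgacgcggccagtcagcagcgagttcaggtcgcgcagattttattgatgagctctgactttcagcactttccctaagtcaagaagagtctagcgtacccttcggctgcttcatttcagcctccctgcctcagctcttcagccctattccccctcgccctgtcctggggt
PAX6 start 31809959, minus strand, chr11:31809960-31810209: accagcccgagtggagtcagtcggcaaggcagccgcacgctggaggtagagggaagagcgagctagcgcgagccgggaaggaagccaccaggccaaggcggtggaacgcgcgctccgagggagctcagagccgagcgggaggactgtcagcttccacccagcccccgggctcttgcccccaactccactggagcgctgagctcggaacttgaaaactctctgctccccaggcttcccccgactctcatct
PAX6 start 31807622, minus strand, chr11:31807623-31807872: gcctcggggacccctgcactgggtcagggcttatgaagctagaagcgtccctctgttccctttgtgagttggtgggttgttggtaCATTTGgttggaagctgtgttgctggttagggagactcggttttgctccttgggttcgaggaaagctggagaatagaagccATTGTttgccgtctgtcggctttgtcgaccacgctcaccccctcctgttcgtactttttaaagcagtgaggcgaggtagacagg
PAX6-AS1 start 31816566, plus strand, chr11:31816316-31816565: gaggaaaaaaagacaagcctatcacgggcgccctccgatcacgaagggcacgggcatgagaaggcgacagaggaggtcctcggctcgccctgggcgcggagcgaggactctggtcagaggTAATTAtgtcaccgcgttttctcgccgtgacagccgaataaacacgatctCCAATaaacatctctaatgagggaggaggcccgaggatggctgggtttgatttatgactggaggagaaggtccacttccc
PAUPAR start 31826567, plus strand, chr11:31826317-31826566: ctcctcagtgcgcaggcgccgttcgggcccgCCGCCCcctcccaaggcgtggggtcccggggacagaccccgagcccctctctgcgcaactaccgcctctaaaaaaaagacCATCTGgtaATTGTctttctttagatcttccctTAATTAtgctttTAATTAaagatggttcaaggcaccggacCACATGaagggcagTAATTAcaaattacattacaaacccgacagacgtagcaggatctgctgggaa
The stretch before 31817961 had a CCAAT match at -54 to -50 from the start and a GC box, and that before 31812720 had a GC box and a pair of E boxes that overlap, while that before 31809959 had no match. TAATTA, the core letters of many homeodomain sites, occurred 3 times before PAUPAR and 1 time before PAX6-AS1, and 4.35% of the stretches before the 35116 starts in the table held it at least once. The other motifs with a match in those printed were more common, with 61.8% of all stretches holding an E box, 42.6% a GC box, 32.0% a CCAAT box and 24.6% a SOX core. The TATA letters, held by 18.9% of all stretches, the nuclear receptor motif, held by 12.1%, and the octamer, held by 3.94%, had no match in those printed. These matches are descriptions of letters and not sites.

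Peaks lay over the 250 bases before the most upstream PAX6 start in 8 lists, all but aNE_H and pNE_M. They belonged to a region of 538 bp across the 5′ end of the gene, chr11:31817852-31818389. Its bases inside peaks numbered 538 in hPSC, 373 in DE, 441 in aNE, 325 in pNE, 386 in aNE_T, 193 in aNE_M, 0 in aNE_H, 271 in pNE_T, 0 in pNE_M and 168 in pNE_H. The 4 lists of days 0 to 2 and aNE_T were thus above the other 5 lists at this end of the gene, pNE_T included, and only hPSC and aNE had a peak over the start base itself. With each list cut to its widest 167792 peaks, the size of the shortest list, pNE_H also had no peak in the upstream stretch and 7 lists remained.

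Other PAX6 starts had other patterns. The stretch before 31812720 was open in pNE, aNE_M, aNE_H and pNE_H, also in the lists cut to one size, and that before 31809959 was open in every list but pNE_T. Before 31807622 the only peaks were those of pNE_M (412 bp of the region chr11:31807628-31808040) and pNE_H (134 bp). In the cut lists the pNE_M peak remained and the pNE_H peak did not. Starts 31806001 and 31805041 had peaks in all 10 lists within their upstream stretch, and 31806925, 31803673 and 31800661 had none in any list. A peak covered the start base of 1 to 3 of the 9 PAX6 starts in a list, where 55.3% to 59.5% of all starts in the table lay under a peak.

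PAX6-AS1 had peaks over its start, and PAUPAR before its start, in some lists only. At the PAX6-AS1 start, 1.4 kb inside PAX6, peaks lay in pNE_M (151 bp) and pNE_H (145 bp) alone, in a region of 193 bp at chr11:31816454-31816646. Neither of these peaks was among the widest in the cut lists, so the pattern rests on narrow peaks. Between that start and the 5′ end of PAX6, chr11:31817084-31817293 was open in pNE_T only, at 210 bp. The stretch before the PAUPAR start was open in hPSC, aNE, pNE, aNE_T and all 3 pNE-derived lists, and its start base lay under a peak in 0 lists. Just after the start, chr11:31826802-31827698 was open in all 10 lists, also when cut to one size. It had 220 bp in hPSC as the lowest and 896 bp in pNE_H as the highest. ELP4-AS1, a noncoding gene inside ELP4, had a peak over its start at 31767891 in hPSC, DE, pNE, aNE_M, aNE_H and pNE_H.

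The 102 regions split by position into 48 inside ELP4, 10 in PAX6 or across its 5′ end and 44 upstream of it. No region lay in the stretch shared by both genes. The spacing was 4.17 kb per region on the ELP4 side, 2.89 kb in PAX6 and 4.55 kb upstream. The window held more regions than the median of 89 for windows drawn in the same way around 20037 protein-coding genes, and 32.8% of those held at least as many.

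**Figure D1:**
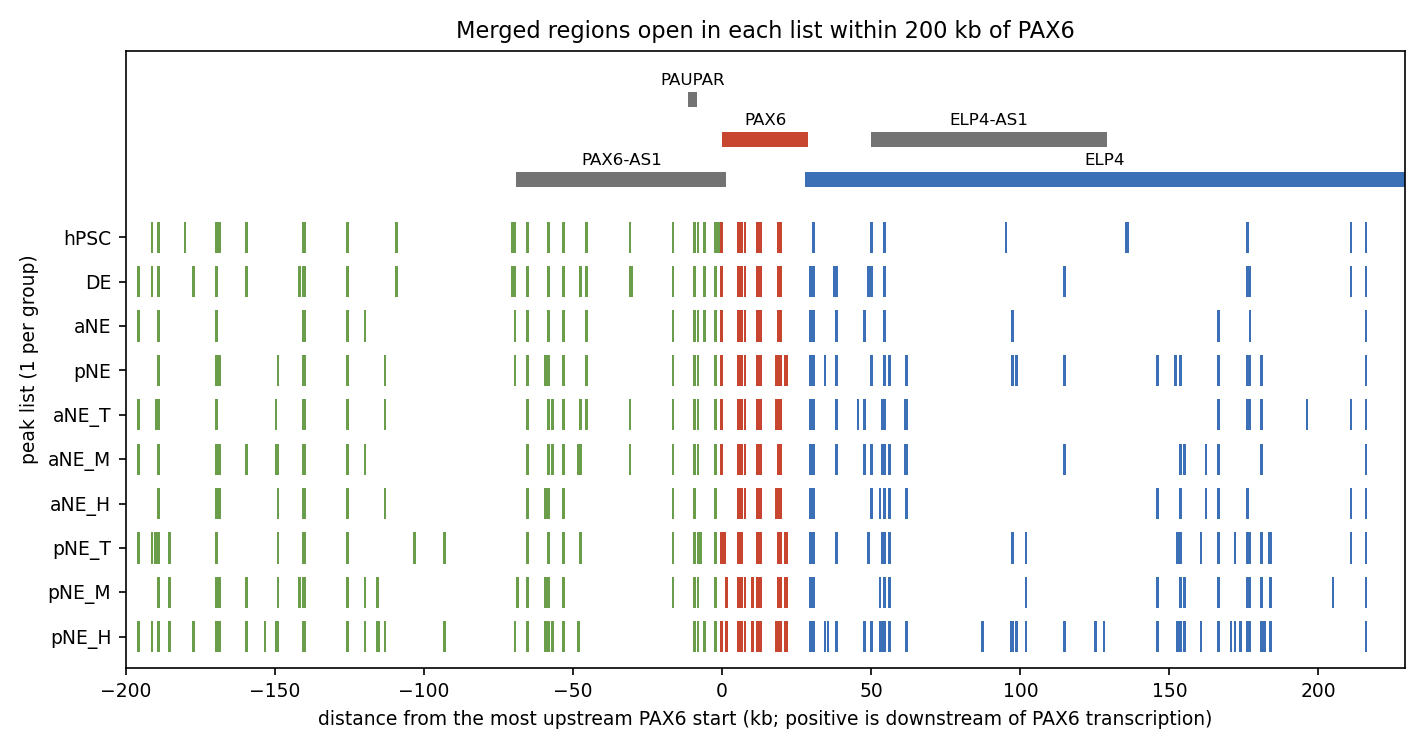
Merged regions open in each of the 10 peak lists (rows) by distance in kb from the most upstream PAX6 start, with positive values downstream of PAX6 transcription and coloured marks inside ELP4 (blue), PAX6 (red) and upstream (green). Regions near PAX6 recur down the rows, and the ELP4 side has 9 marks in hPSC and 35 in pNE_H, the longest list.

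ELP4 regions were shared by the fewest lists. Of the 48, 3 were open in all 10 lists (6.25%), against 3 of 10 in PAX6 (30.0%) and 9 of 44 upstream (20.5%). The median number of lists per region was 2 inside ELP4, 6 in PAX6 and 4 upstream. Part of this contrast rests on narrow peaks. In lists cut to one size, 32 of the 48 ELP4 regions still had a peak, against 9 of 10 in PAX6 and 37 of 44 upstream. Open in all 10 cut lists were 1 in ELP4, 3 in PAX6 and 8 upstream. For the whole window 15 regions, or 14.7%, were open in every list, beside 16.5% of all merged regions of the genome, so the window as a whole was near the background. The count depends on what is called open: where peaks had to cover at least 50% of a region, 4 regions were open in every list. Regions open in 1 list only numbered 27 (26.5%; background 33.5%), of which 17 lay in ELP4. Of these 17, 7 had a peak in the lists cut to one size. Of the 27, 10 were open in pNE_H only (9.80%; background 10.6%), 8 in ELP4 and 2 upstream. The widest of these 10 had 312 bp, at chr11:31932940-31933251. The remaining 60 were open in 2 to 9 lists, and the 102 regions held 54 distinct patterns, 38 of them found once. Of the regions open in 1 list, 5 belonged to hPSC and 5 to pNE_T, 2 each to DE, aNE_T and pNE_M, 1 to pNE, and 0 to aNE, aNE_M or aNE_H. The widest, 314 bp at chr11:31921101-31921414, was that of pNE_T.

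**Figure D2:**
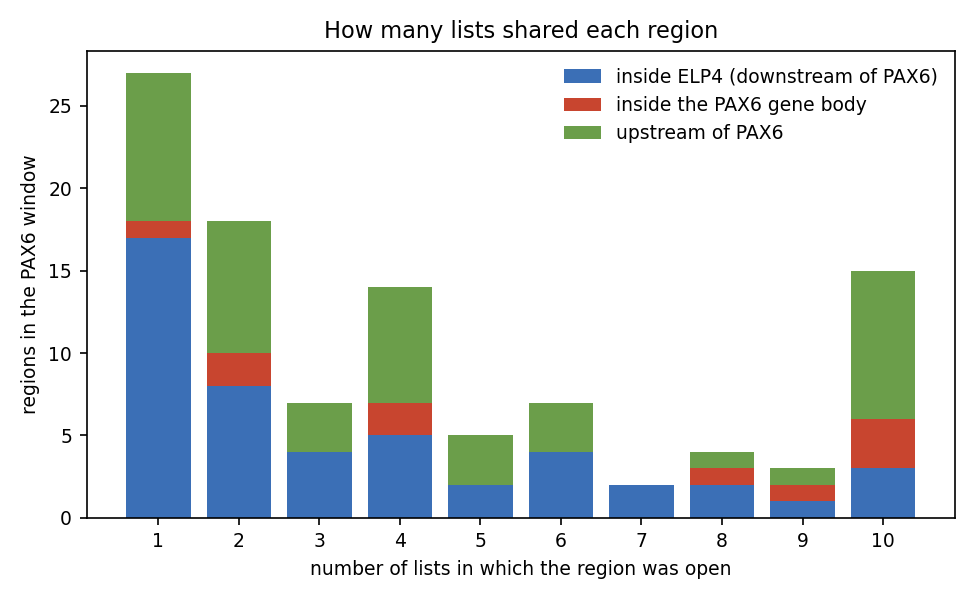
Number of regions (vertical axis) by the number of lists in which a region was open (horizontal axis), with bars stacked by position. The tallest bars are at 1 list with 27 regions, 17 of them in ELP4, and at 2 lists with 18, and 15 regions were open in all 10.

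The regions open in every list were also the widest. Their median width was 935 bp, against 344 bp for regions open in 2 to 9 lists and 172 bp for those in 1 list. All merged regions had the same order, at 871, 359 and 161 bp, and a merged region can only widen as lists are added to it. The 3 widest of the window lay inside PAX6. One of 2084 bp at chr11:31804466-31806549 covered the starts 31806001 and 31805041 and had 819 bp of peaks in pNE_T to 1753 bp in pNE_H. One of 1866 bp at chr11:31811044-31812909 reached the start 31812720, with 764 bp in DE and 1611 bp in pNE_T as its lowest and highest values. The third, 1571 bp at chr11:31797862-31799432, had 684 bp in DE and 1405 bp in aNE_M. Each of the 10 lists had a peak in all 3, and the list with most open bases differed among them.

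Inside ELP4 the regions open throughout were chr11:31601704-31602259, 216 kb downstream of the PAX6 start, chr11:31763237-31763786 at 54.5 kb and chr11:31787035-31787730 at 30.6 kb. At the last of these hPSC had 154 bp inside peaks and the other lists had 500 to 654 bp. Its neighbour at chr11:31787985-31788483, 29.7 kb downstream of the start and within 1 kb of the 3′ end of PAX6, was closed in hPSC. It was open in the 9 other lists, with 217 bp in DE and 499 bp in pNE_T as the lowest and highest. This was the only region of the window with that pattern (0.98%; background 1.15%).

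Open regions per list were fewest in aNE and most in pNE_H. The number was 36 in hPSC (35.3% of the 102; 40.6% of all merged regions were open in that list), 40 in DE (39.2%; 46.9%), 30 in aNE (29.4%; 32.0%) and 43 in pNE (42.2%; 39.1%). Anterior origin gave 41 for aNE_T (40.2%; 38.0%), 43 for aNE_M (42.2%; 41.7%) and 33 for aNE_H (32.4%; 38.9%). With posterior origin pNE_T had 48 (47.1%; 41.3%), pNE_M 43 (42.2%; 41.0%) and pNE_H 73 (71.6%; 60.9%). The share of window regions open was below that of all regions in hPSC, DE, aNE and aNE_H and above it in pNE and the other 5 day 4 lists. The pNE_H list was also the longest, with 313095 peaks on the main chromosomes against 167792 in aNE, and sequencing depth is unknown. Cut to one size, pNE_H had 38 open window regions, pNE_T had 40, and the others had 28 to 36.

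Where the added regions lay differed between the parts of the window. Inside ELP4, 9 regions were open in hPSC, 12 in DE, 9 in aNE, 19 in pNE, 16 in aNE_T, 17 in aNE_M, 14 in aNE_H, 21 in pNE_T, 16 in pNE_M and 35 in pNE_H. PAX6 itself had 5 to 9 open regions in a list, with 5 in hPSC, DE, aNE, aNE_M and aNE_H. Upstream the counts were 22 in hPSC, 23 in DE, 16 in aNE, 17 in pNE, 14 in aNE_H as the lowest and 29 in pNE_H as the highest. These counts by part take no account of list length. Of all merged regions, 40.6% were open in hPSC and 60.9% in pNE_H, the longest list. The 8 ELP4 regions open in pNE_H only had no peak in the lists cut to one size.

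**Figure D3:**
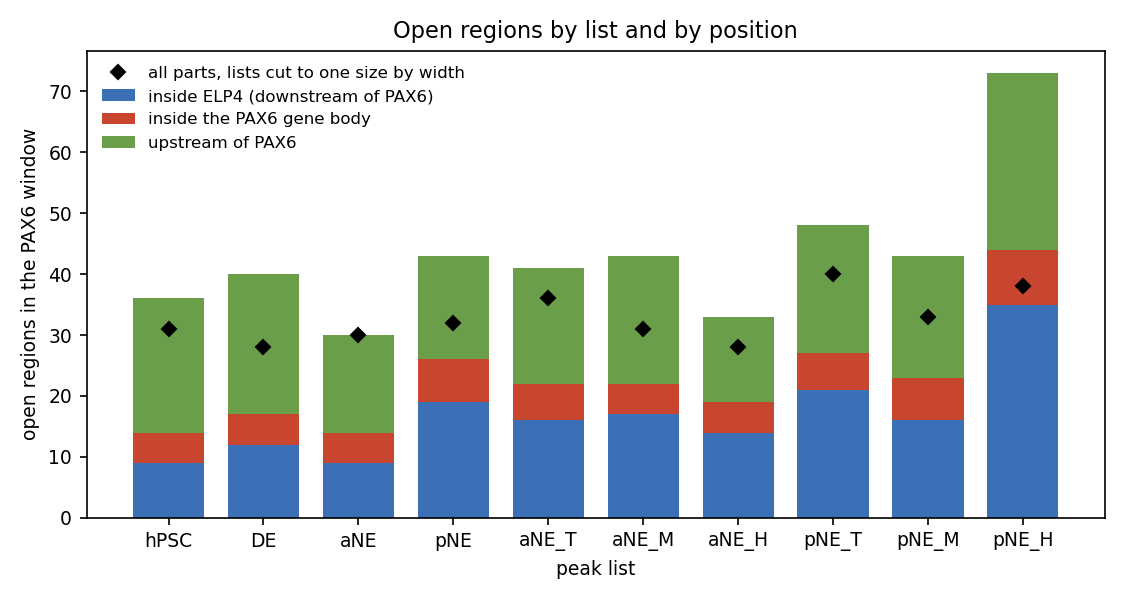
Open regions of the PAX6 window in each list (bars from 0, stacked by position), with diamonds for the total after every list was cut to its widest 167792 peaks. The bars run from 30 in aNE to 73 in pNE_H, and the diamonds from 28 in DE and aNE_H to 40 in pNE_T.

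A share of peak bases takes account of the length of a list. Bases of the PAX6 window inside peaks, per Mb of all peak bases of the list, numbered 180 in hPSC, 172 in DE, 207 in aNE, 207 in pNE, 217 in aNE_T, 200 in aNE_M, 188 in aNE_H, 229 in pNE_T, 221 in pNE_M and 220 in pNE_H. DE was lowest and the pNE-derived lists were the 3 highest, an order that depends on the window. With 100 kb each side DE was still lowest, at 121, but aNE_T (154), aNE (153) and pNE (147) were above pNE_T (144), pNE_H (138) and pNE_M (137). In lists cut to one size aNE_T (219) was above pNE_H and pNE_M (216 each), and with 500 bp windows pNE (228) was above pNE_M (225). The median window of a protein-coding gene had 244 in hPSC and 202 in pNE_H, and the share of genes with a higher value than PAX6 was 69.1% in hPSC and 42.5% in pNE_H. The PAX6 window was below the median gene in every list before day 4 and above it in the pNE-derived lists only.

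The ELP4 side was lower in hPSC and DE than in every neural list. Its share was 22.7 bases per Mb in hPSC, 33.8 in DE, 45.3 in aNE, 62.3 in pNE, 59.5 in aNE_T, 55.7 in aNE_M, 46.2 in aNE_H, 73.6 in pNE_T, 61.3 in pNE_M and 75.7 in pNE_H. The PAX6 body had 34.8 in DE and 44.4 in hPSC, and 46.1 to 54.6 in the neural lists. Upstream of PAX6 the highest value was that of hPSC, 113, and the lowest that of aNE_H, 86.9.

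**Figure D4:**
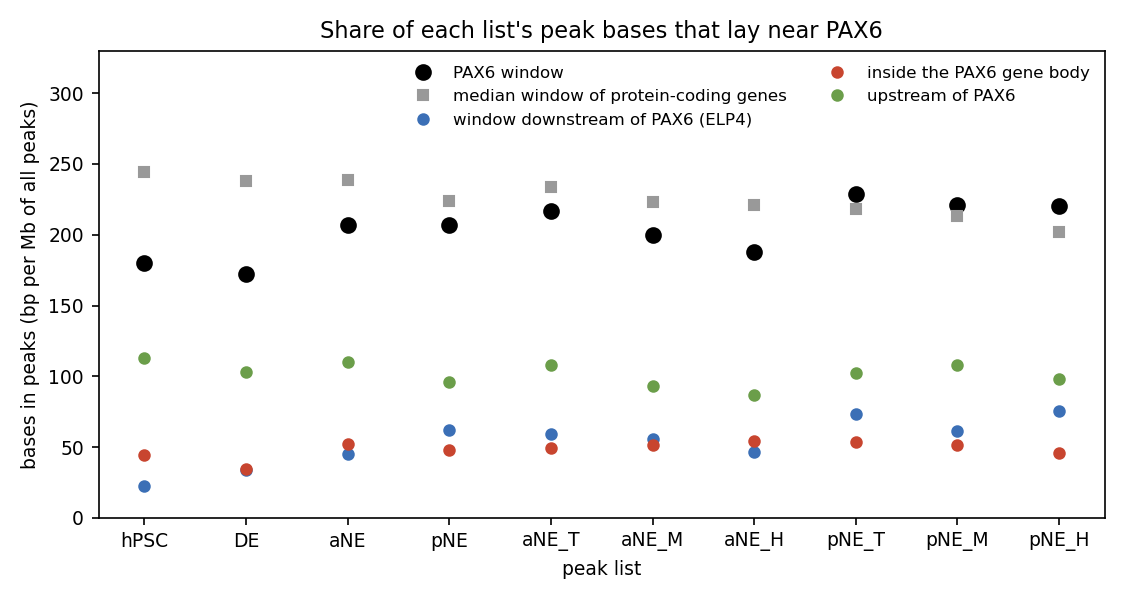
Bases of the PAX6 window inside peaks per Mb of all peak bases of a list (vertical axis), for the whole window, its 3 parts and the median window of protein-coding genes (squares). The ELP4 part is at 22.7 in hPSC and 75.7 in pNE_H, and the whole window is above the gene median in pNE_T, pNE_M and pNE_H.

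The step from hPSC to DE added regions in ELP4 and upstream and opened or closed none in PAX6. Of 47 regions open in either list, 11 were open in DE only (gained; 23.4%, background 27.2%), 6 in ELP4 and 5 upstream, and 7 in hPSC only (lost; 14.9%, background 15.8%). Which was larger depends on the setting, with 8 gained and 11 lost in lists cut to one size and 11 gained and 12 lost at 50% cover. The widest gained was chr11:31779326-31779895 in ELP4, 38.4 kb downstream of the start, with 0 bp in hPSC and 454 bp in DE. It was later closed in aNE_H and pNE_M only. The widest lost was chr11:31825815-31826405, just before PAUPAR, with 430 bp in hPSC and 0 in DE, and it was open again in both day 2 lists, at 235 bp in aNE and 470 bp in pNE.

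From DE to aNE, of 45 regions, 15 were lost (33.3%; background 36.4%), 9 of them upstream, and 5 were gained (11.1%; background 6.75%). In lists cut to one size the order turned, with 6 lost and 8 gained. The widest merged region lost was chr11:31959423-31959927, 141.7 kb upstream, with 417 bp in DE, which was open elsewhere in pNE_M only, at 349 bp. The peak lost at chr11:32009001-32009442 was larger, at 431 bp in DE. The 5 gained regions were the one before PAUPAR, chr11:31650829-31651983, chr11:31720340-31720603 and chr11:31770008-31770471 in ELP4, and chr11:31937555-31937968 upstream.

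From DE to pNE the gains were more numerous than from DE to aNE. ELP4 held 48 of the 102 window regions and 12 of the 40 open in DE. Most regions closed in DE, which could be gained, thus lay in ELP4. Of 57 regions 17 were gained (29.8%; background 17.4%), 10 in ELP4, 2 in PAX6 and 5 upstream, and 14 were lost (24.6%; background 31.1%), 11 of them upstream. The widest lost was chr11:31823488-31824329, 5.95 kb upstream of the start, with 559 bp in hPSC, 842 in DE, 198 in aNE, 0 in pNE and 200 in pNE_H, and none in the other 5 lists. Among the gains the widest merged region was chr11:31795800-31797100, described with day 4, with 224 bp in pNE. More bases were gained in pNE at chr11:31650829-31651983, with 662 bp.

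On day 2, more of the PAX6 window was open in pNE than in aNE. Of 47 regions open in either, 26 were shared, 17 were open in pNE and not aNE (36.2%; background 28.5%) and 4 in aNE and not pNE (8.51%; background 12.4%). The 17 comprised 11 in ELP4, 2 in PAX6 and 4 upstream. The widest merged region was chr11:31795800-31797100, with 224 bp in pNE, where chr11:31671630-31672151 had 362 bp. The 4 of aNE were chr11:31770008-31770471, chr11:31823488-31824329, chr11:31937555-31937968 and chr11:32013569-32014050, of which the last had 479 bp in aNE. In the cut lists the difference was smaller, with 10 regions for pNE and 8 for aNE. The window held 207 bases per Mb in both lists, a ratio of pNE to aNE of 0.998, so here pNE had more open regions and no larger share. The equal share depends on the setting. With 500 bp windows it was 228 in pNE and 191 in aNE, and with 100 kb each side 147 and 153. The median ratio of all protein-coding genes was 0.931. The pNE list as a whole was longer, at 206811 peaks against 167792.

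A single region was closed before day 2 and open in every list from then on, and it lay deep in ELP4. At chr11:31650829-31651983, 166.6 kb downstream of the PAX6 start, no peak lay in hPSC or DE. Bases inside peaks numbered 543 in aNE, 662 in pNE, 417 in aNE_T, 365 in aNE_M, 515 in aNE_H, 1093 in pNE_T, 1110 in pNE_M and 1084 in pNE_H. This pattern of 8 lists held for 1 of the 102 regions (0.98%; background 0.37%). All 3 pNE-derived lists were above the other 5, which did not exceed 662 bp.

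The opposite order, open early and closed later, was found on both sides of PAX6. Regions open in hPSC or DE and in no later list numbered 9 (8.82%; background 12.9%), 5 upstream and 4 in ELP4, and the widest was chr11:31888198-31888542 with 307 bp in hPSC and 343 bp in DE. At chr11:31863192-31863944, 45.6 kb upstream and inside PAX6-AS1, peaks covered 753 bp in hPSC, 585 in DE, 462 in aNE, 341 in pNE and 150 in aNE_T, and 0 in the other 5 lists. This region, picked after its values were seen, was the widest merged region lost from pNE to each of its 3 day 4 lists. Larger pNE peaks were lost at chr11:31810002-31810667 in pNE_T (558 bp in pNE) and at chr11:31779326-31779895 in pNE_M (511 bp in pNE).

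Day 4 gains from aNE were 15 of 45 regions in T medium (33.3%; background 25.5%), 18 of 48 in M (37.5%; background 32.8%) and 14 of 44 in H (31.8%; background 31.7%). Losses were 4 (8.89%; background 11.4%), 5 (10.4%; background 12.4%) and 11 (25.0%; background 16.9%). The widest region gained in T and in M medium was chr11:31764082-31764687 in ELP4, at 497 bp, also open in aNE_M (484 bp), pNE_T (418 bp) and pNE_H (485 bp). In H medium the widest gained was chr11:31966671-31967260, at 374 bp. The widest merged region lost in all 3 media was chr11:31823488-31824329, which had 198 bp in aNE. Larger aNE peaks were lost at chr11:31863192-31863944 in M and H medium (462 bp) and at chr11:32013569-32014050 in H medium (479 bp). The aNE_H list also had no peak at chr11:31817852-31818389, the region across the 5′ end of PAX6, where pNE_H of the same medium had 168 bp.

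From pNE, T medium gained 19 of 62 regions (30.6%; background 26.0%) and lost 14 (22.6%; background 21.9%). The widest merged region gained was chr11:32003070-32003760, with 302 bp in pNE_T. The peak gained at chr11:31764082-31764687 was larger, at 418 bp. M medium gained 13 of 56 (23.2%; background 24.7%) and lost 13 (23.2%; background 21.1%), with chr11:32003070-32003760 again the widest gained, at 515 bp in pNE_M. H medium gained 33 of 76 (43.4%; background 41.1%) and lost 3 (3.95%; background 8.32%), namely chr11:31665790-31666048, chr11:31834259-31834596 and chr11:31863192-31863944. The widest merged region gained there was chr11:31823488-31824329, with 200 bp in pNE_H and no peak of that list in the lists cut to one size. A larger peak was gained at chr11:32003070-32003760, with 691 bp in pNE_H. In percentage points, the shares gained and lost in all 3 media lay nearer to the background than those of the step from DE to pNE. As a ratio to the background this did not hold for the loss in H medium. The cut lists gave 13 gains and 7 losses in H medium.

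Of the patterns counted across day 4 lists by origin or medium, that of posterior origin had 4 regions and that of any medium at most 1. Of 92 regions open in at least 1 of these lists, those open in all 3 pNE-derived lists and no aNE-derived one numbered 4 (4.35%; background 2.77%). None was open in all 3 aNE-derived lists and no pNE-derived one (background 0.752%). For a medium shared by both origins and no other day 4 list the counts were 1 for T (background 0.754%), 0 for M (background 0.228%) and 0 for H (background 1.35%). The one T region was chr11:32007459-32007740, with 264 bp in aNE_T and 254 bp in pNE_T. Regions open in all 6 day 4 lists numbered 17 (18.5%; background 24.1%).

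Of the 4 pNE-derived regions, the widest lay inside PAX6 at chr11:31795800-31797100, 21.5 kb downstream of the most upstream start. Peaks covered 0 bp in hPSC, DE, aNE, aNE_T, aNE_M and aNE_H, 224 in pNE, 1290 in pNE_T, 855 in pNE_M and 801 in pNE_H. It was the only region of the window open in pNE and its 3 descendants and nowhere else (0.98%; background 0.292%), a pattern counted after these values were seen. Next in width was chr11:32003070-32003760, 185.5 kb upstream within the noncoding gene LOC124902658, with 302 bp in pNE_T, 515 in pNE_M and 691 in pNE_H. In ELP4 lay chr11:31715809-31716299, 101.9 kb downstream, with 238, 215 and 491 bp in the same order, and chr11:31633788-31634162, 184 kb downstream, with 271, 276 and 345 bp. All 4 kept their lists when each list was cut to its widest peaks, and pNE_H was highest in all but the PAX6 region.

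A further set of 3 regions was open in pNE and in every day 4 list except aNE_T, and closed in hPSC, DE and aNE (2.94%; background 0.385%), a pattern also counted after its values were seen. At chr11:31664114-31664498 in ELP4 the bases were 212 in pNE, 182 in aNE_M, 187 in aNE_H, 325 in pNE_T, 318 in pNE_M and 282 in pNE_H. At chr11:31761765-31762109, also in ELP4, they were 161, 249, 248, 116, 316 and 331. At chr11:31966671-31967260, 149 kb upstream, they were 142, 287, 374, 345, 527 and 338. In the cut lists the first of these kept its pattern, the second had no peak in pNE or pNE_T, and the third had none in pNE.

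**Figure D5:**
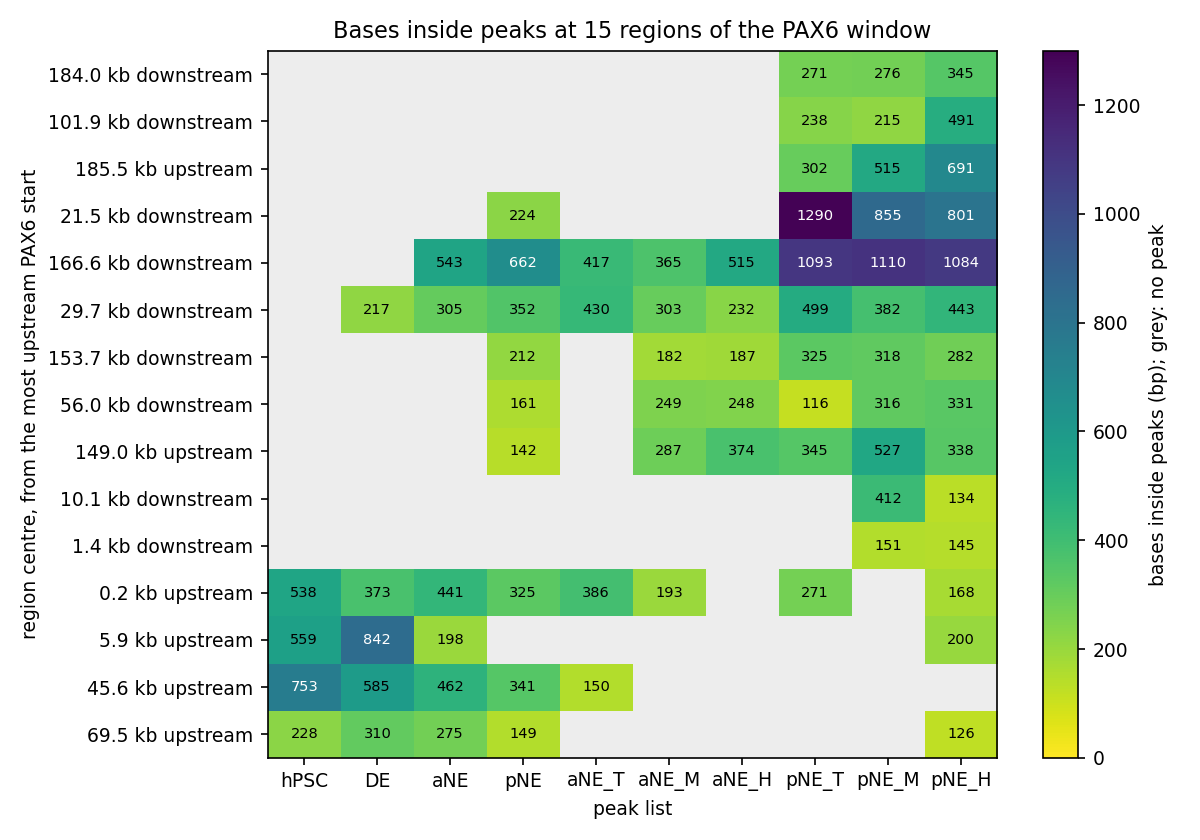
Bases inside peaks (colour and printed number, grey for no peak) at 15 regions of the PAX6 window (rows, by distance of the region centre from the most upstream start) in the 10 lists (columns). The 4 upper rows are filled in the pNE-derived lists, with 801 to 1290 bp at 21.5 kb downstream, and the lowest rows are filled mainly in hPSC, DE, aNE and pNE.

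By shared regions, aNE_H was nearer to pNE than to aNE. The Jaccard index (regions open in both lists over regions open in either) was 0.652 for pNE and aNE_H, the highest of all pairs in the window, and 0.432 for aNE and aNE_H. Over all merged regions these were 0.648 and 0.514. The index of hPSC and DE was 0.617, that of aNE_T and aNE_M 0.615 and that of aNE and pNE 0.553, and hPSC and pNE_H had the lowest, 0.298. Lists of unequal length limit this index.

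Windows of 24 other transcription factor genes of the neural plate, eye field and brain regions were measured in the same way. From DE to aNE the PAX6 share was 1.21 times as high, and 20 of the 24 were higher in aNE, beside 60.9% of all protein-coding genes. From DE to pNE it was 1.20 times as high, with 19 of the 24 higher in pNE against 37.2% of all genes. These comparisons share the DE list. In pNE_H over aNE_H the PAX6 ratio was 1.17, whereas 5 of the 24 were higher and 19 lower, and 24.4% of all genes were higher. In pNE_M over aNE_M it was 1.10 with 6 of the 24 higher (33.8% of all genes), and in pNE_T over aNE_T 1.06 with 7 higher (29.6%). In this window the PAX6 share was higher with posterior origin in each medium. Most of the related genes were lower there, as were most protein-coding genes, so the related genes did not stand apart. A ratio above that of PAX6 was held by 8.26% of all genes in H, 15.6% in M and 21.0% in T medium. With 100 kb each side the PAX6 share was still higher in H medium (138 in pNE_H, 128 in aNE_H). The order turned in T (144 in pNE_T, 154 in aNE_T) and M (137 in pNE_M, 143 in aNE_M). Of the related genes, 4 are given as examples picked after their values were seen. MEIS2, which encodes a homeodomain partner of PAX6, had 272 bases per Mb in aNE_T and 327 in pNE_T. OTX2, a forebrain and midbrain gene, had 231 and 160, and LHX2, a forebrain and eye field gene, 289 and 175. SIX3, an anterior forebrain and eye gene, had 377 and 341.

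The 5 protein-coding genes whose share followed that of PAX6 most closely over the 10 lists were ZNF608 (Pearson r = 0.963), MFAP3L (0.956), DCLK3 (0.947), LAMP5 (0.943) and PDHX (0.935). They were taken from 19341 genes with at least 20 regions, 19 of which had r above 0.9. The 10 points are 1 list each and share the same cells, depth and list length, so r is a description. ZNF608 had 233 bases per Mb in hPSC and 339 in pNE_T, its highest, and all 5 genes were highest in pNE_T.

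Among the markers fixed for the populations, POU5F1, a pluripotency gene, had a peak within 1 kb of a gene end in hPSC and DE only. DPPA4 lacked one in aNE_M and pNE_M. The other 26 of 28 markers, those of forebrain, midbrain, hindbrain and other lineages included, had a peak in every list, so presence of a peak does not separate the neural populations. The outermost regions inside were chr11:31601704-31602259, open in 10 lists, and chr11:32013569-32014050, open in 6. The nearest outside were chr11:31583388-31583539, 205 kb from the gene and open in aNE_H only, and chr11:32022290-32022510, 204 kb away and open in DE and aNE_H.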

How the data were processed

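The authors deposited 10 lists of peak coordinates, each for a whole group of OmniATAC-seq libraries, with a start and an end per peak and no score, count or summit. The submitters' processing notes name FastQC, Bowtie2, MACS2, bedtools, featureCounts, edgeR and deepTools and the build hg38, without a role or order. How the 3 replicates entered a list, and the peak threshold, are not given in the sources used here, and either could move every count.

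Starts were converted to 1-based positions. Overlapping peaks of any list (at least 1 bp) were joined into regions, using the autosomes, X and Y. Beside each count in the PAX6 window stands the background, the percentage of all merged regions with the same pattern. Genes, strands and starts came from RefSeq on GRCh38.p14; exons and introns were not used here. Work was done in Python 3.11.15 with numpy 2.4.6 and pandas 2.3.3, and the merging was tested on simulated data. Peak widths stood in for strength where lists were cut to the 167792 widest peaks. Alternatives were a window of 100 kb each side, peaks covering at least 50% of a region, merging across gaps of 100 bp, 500 bp windows at peak midpoints and peaks wholly inside the window, and, added after seeing the data, leaving out pNE_H. Named regions were those within 1 kb of a PAX6 end and the 3 widest open throughout. For each counted pattern the widest was named, or all where there were 5 or fewer. Width is that of the region merged over all lists, so the widest region need not hold the widest peak of a list. Some regions with more peak bases in a list are named beside it. Named genes were those of the window and the 5 most alike. Regions and genes were chosen with earlier results of these data known.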

Additional observations from a re-analysis of the deposited data

Results flagged for a closer look

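The effect of medium on the number of open regions in the PAX6 window went opposite ways in lists of anterior and posterior origin. From T to H medium the number was 41 and then 33 for aNE-derived lists, and 48 and then 73 for pNE-derived lists, so the posterior change exceeded the anterior one by 33 regions. From M to H medium it was 43 and then 33, and 43 and then 73, a difference of 40 regions. From T to M medium it was 41 and then 43, and 48 and then 43, a difference of -7 regions. These differences were not tested, since each group has 1 list. The pNE_H list is also the longest of the 10, and its part in the result was measured by cutting the lists to one size. The counts were then 36, 31 and 28 for aNE_T, aNE_M and aNE_H, and 40, 33 and 38 for pNE_T, pNE_M and pNE_H. Among these only the step from M to H medium still went opposite ways. With 50% cover the step from T to M medium also went one way, at 36 and then 34 for anterior and 40 and then 34 for posterior origin. The share of peak bases in the window went the same way for both origins in all 3 steps. In the order T, M, H it was 217, 200 and 188 bases per Mb for anterior origin and 229, 221 and 220 for posterior origin.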

How the results depend on the processing

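Of 244 recomputed values of 45 results, 199 stayed within 1.5 times the reported value. No value moved beyond that with gaps of 100 bp merged, 500 bp windows, peaks wholly inside the window or, for the 4 results recomputed, pNE_H left out. With 100 kb each side there were 56 regions, 25 of them in ELP4, 2 pNE-derived ones, and 2 open in aNE and not pNE against 9 in pNE and not aNE. Gains were then 7 from hPSC to DE, 3 from DE to aNE, 9 from DE to pNE, 8, 10 and 6 from aNE to T, M and H medium and 7, 5 and 15 from pNE, with losses of 3, 8 and 7 in the first 3 steps; fewer regions enter this window. The share of peak bases was 144 per Mb in pNE_T, 137 in pNE_M and 138 in pNE_H, which puts pNE_T below aNE_T (154) and pNE_M below aNE_M (143). With 50% cover, 4 regions were open in every list, 8 were gained from DE to aNE and 12 lost from hPSC to DE. With lists cut to one size, gains were 8 from DE to aNE, 9 from aNE to aNE_M and 13 from pNE to pNE_H. Losses were then 11 from hPSC to DE, 6 from DE to aNE, 9 from DE to pNE, 7 from aNE to aNE_T, 8 from aNE to aNE_M, 9 from pNE to pNE_T and 7 from pNE to pNE_H, and 8 regions were open in aNE and not pNE against 10 the other way, so gains no longer exceeded losses from hPSC to DE, nor losses gains from DE to aNE. The cause was not tested. No paired analysis was possible because each list holds a whole group, and leaving out a replicate could not be run for the same reason. Peak height and depth are unknown, so a narrow peak near the caller's threshold cannot be weighed, and an absent peak does not show closed chromatin.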
